A study of Drosophila melanogaster with 9 samples.

Results

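Larvae of the fruit fly Drosophila melanogaster reared at medium density were compared with larvae reared at low density, using RNA sequencing of whole animals. The low-density group was seeded at 5 eggs per ml of a sugar-yeast diet and the medium-density group at 60 eggs per ml, and each group had 3 libraries, so that 6 of the 9 libraries of the study were compared. Each library was made from the mRNA of a pool of 10 whole larvae in the wandering phase of the third instar, when larvae climb out of the food to pupate. The libraries of a high density, seeded at 300 eggs per ml, entered the statistical model and are not described. First-instar larvae had been counted and assigned at random to a density, per the labels' protocols. The strain and the sex of the larvae are not given in the labels, and nothing there says whether the pools of a group came from separate cultures, so that p-values measure only the spread between these pools. Of the 17759 genes in the deposited table, 12883 passed a filter on low counts and were tested. They were divided into 29 Y-linked genes, 77 genes named for the testis in the lists used here, 2055 other X-linked genes and a rest of 10722 genes.

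Male and female larvae differ in RNA well before metamorphosis. In males, the roX RNAs and the MSL proteins coat the single X chromosome and raise its transcription, and in females the RNA-binding protein Sex-lethal blocks the translation of msl-2. The larval testis is large and filled with spermatocytes, which switch on a broad programme of genes used in no other cell, among them the Y-linked fertility genes and the testis copies of common housekeeping subunits, whereas the larval ovary is small. Wandering larvae also respond to ecdysone, make glue proteins in the salivary gland, store protein and lipid in the fat body and stop feeding.

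The low-density libraries held 22620583 to 23656877 counts and those of medium density 21943380 to 23621435, so that 3 counts, taken as the floor of detection, came to between 0.127 and 0.137 CPM. CPM are counts scaled to a fixed library total, with edgeR's TMM factors, which were 0.98 to 1.01 at low and 0.906 to 0.947 at medium density. Medium replicate 2 stood nearer to the low-density libraries than medium replicates 1 and 3 in many of the measures given here. Counts of genes are therefore also given without it. Because it was picked for that nearness, leaving it out tends to widen differences, and calls made without it are no separate support.

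No gene passed an adjusted p of 0.05 in edgeR's quasi-likelihood test, and the lowest adjusted p was 0.13. At an unadjusted p under 0.05 there were 3223 genes, or 25.0% of those tested, of which 968 (7.51%) were higher and 2255 (17.5%) lower at medium density. The median size of their differences was 0.98 on the log2 scale, and 1557 of them differed by more than 2-fold, 1456 lower and 101 higher at medium density. The split by direction depended on the scaling: 30.0% of the genes at that p were higher with TMM factors, 12.9% (403 of 3126) with library totals, which moved the median of all genes by -0.10, 19.8% (599 of 3031) with ribosomal RNA genes left out, 36.3% (1208 of 3330) with RLE factors, 37.7% with DESeq2 and 45.2% (1979 of 4380) with only low and medium libraries in the fit. The CPM of the 3 medium-density libraries lay wholly above or below those of the 3 low-density libraries for 5208 genes (40.4%), 2350 (18.2%) higher and 2858 (22.2%) lower. In the text that follows, a gene or list is said to differ at p under 0.05 in this unadjusted sense. No such gene passed the adjusted threshold in edgeR. Counts of list members at that p are to be set against the shares of all genes, 7.51% higher and 17.5% lower. Members and lists were chosen with earlier results of these data known, so such counts only describe these libraries.

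The count of 0 was tied to the tool and to 1 of the libraries. DESeq2 found 1575 genes (12.2%) at an adjusted p of 0.05, 444 (3.45%) higher and 1131 (8.78%) lower at medium density, and limma voom called 0, with 3106 genes at an unadjusted p under 0.05. Without medium replicate 2, edgeR called 1094 of 13114 genes (8.34%), 70 (0.534%) higher and 1024 (7.81%) lower. The 818 genes called by both had the same direction in both. They made up 51.9% of the DESeq2 calls and 74.8% of the calls without medium replicate 2. Leaving out any other single library gave 0 calls in edgeR. Many calls made without medium replicate 2 were tied just under the threshold. In that edgeR fit the genes ng3 and roX2, described below, had unadjusted p of 2.93e-05 and 0.00323 and the same adjusted p of 0.0482.

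The roX RNAs, the male-specific RNAs of dosage compensation, were lower at medium density on average but overlapped between the groups. In the 3 low-density libraries roX1 stood at 754.4, 506.5 and 330.0 CPM and in the medium-density libraries at 196.3, 402.5 and 130.6 CPM. The medium replicate 2 was above low replicate 3, and replicates 1 and 3 of medium density were below all low-density libraries. The log2 fold change of roX1, medium minus low, was -1.12 ± 0.45 (SE) with an adjusted p of 0.167 in edgeR, and that of roX2 was -1.13 ± 0.47, with CPM of 37.1, 24.6 and 15.1 at low and 8.89, 20.1 and 6.14 at medium density. DESeq2 called neither of the 2, with an adjusted p of 0.0789 for roX1 and 0.106 for roX2. Without medium replicate 2 their log2 fold changes were -1.70 and -1.77, and both were called lower in edgeR, with an adjusted p of 0.0482. The overlap of both RNAs came through that library, so leaving it out was bound to widen their differences. Among the MSL genes, msl-2, the subunit limited to males, was lower in all 3 medium-density libraries, at 22.5, 24.8 and 21.0 CPM against 41.2, 32.3 and 25.5 CPM at low density (log2 fold change -0.53 ± 0.17), whereas msl-1, a scaffold subunit made in both sexes, was higher by 0.19. Of 7 dosage compensation genes tested, 3 (42.9%) were lower and 1 (14.3%) higher at p under 0.05, against 17.5% and 7.51% of all genes. DESeq2 called 0 of the 7, against 12.2% of all genes.

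Of 10 genes of sex determination and yolk, 3 (30.0%) were higher and 1 (10.0%) lower at p under 0.05, against 7.51% and 17.5% of all genes. Yp3, a yolk protein gene used by adult females and scarcely read in larvae, stood at 0.304, 0.335 and 0.812 CPM at low and 2.79, 1.12 and 3.44 CPM at medium density. All medium-density libraries were above all low-density libraries, and the log2 fold change was 2.33 ± 0.56 (adjusted p = 0.13 in edgeR, 0.00974 in DESeq2). The low-density values were not far above the floor of 3 counts, so the size of that change is uncertain. The related genes Yp1 and Yp2 had at most 2 and 6 counts in any library and were not tested. Sxl, the female switch gene, was at 157, 182 and 237 CPM at low and 252, 265 and 285 CPM at medium density, a log2 fold change of 0.48 ± 0.16. The groups did not overlap there, nor for dsx, the last factor of the cascade in both sexes, at 0.38 ± 0.14. fl(2)d, a cofactor of Sxl splicing, was short of that p, at 0.17 ± 0.08. tra2, a splicing factor of the cascade that also acts in spermatogenesis, was lower, at 44.7, 46.6 and 39.6 CPM at low and 32.1, 33.4 and 31.4 CPM at medium density (log2 fold change -0.43 ± 0.09, DESeq2 adjusted p = 0.0051).

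**Figure D1:**
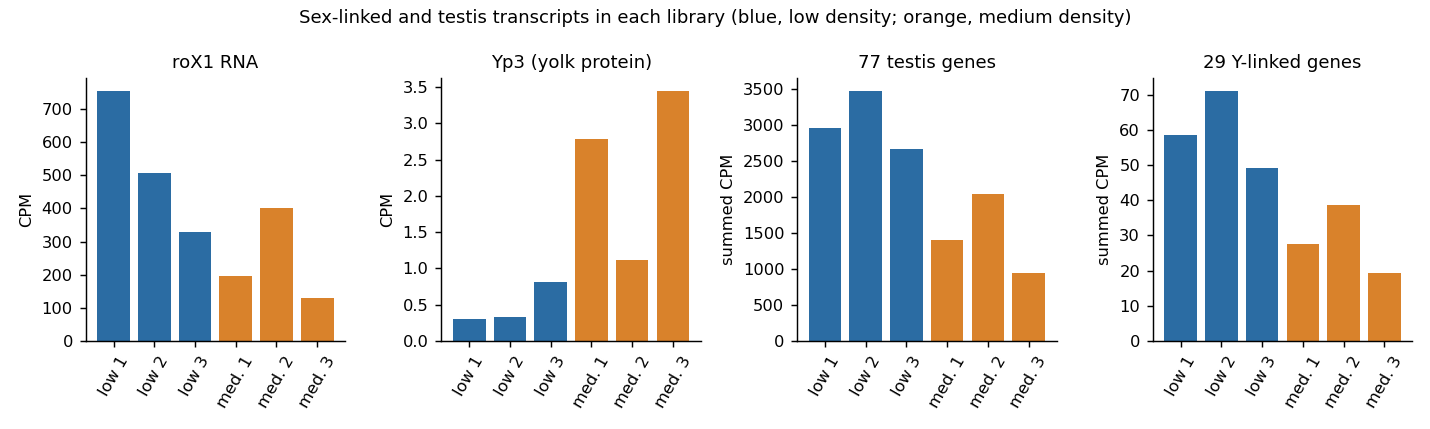
Each bar is 1 library, blue at low and orange at medium density, and the y axes, which start at 0, give TMM-scaled CPM of roX1 and Yp3 and the sum of these over 77 testis genes and over 29 Y-linked genes. Testis and Y-linked sums were lower in all 3 medium-density libraries, roX1 overlapped through medium replicate 2 at 402.5 CPM, and Yp3 was higher in all 3.

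Testis transcripts were lower at medium density almost throughout. These lists were drawn up with earlier results of these data known, so the shares given for them are no separate support. All 77 testis genes were tested and all 77 had a log2 fold change below 0. Values ran from -1.78 to -0.11 with a median of -1.11. Of all genes tested, 47.3% were below 0, and the median of all genes was 0.02. At p under 0.05, 71 of 77 (92.2%) were lower and 0 higher, against 17.5% and 7.51% of all genes. Of the 77, 74 (96.1%) were lower without overlap, against 22.2% of all genes. Their summed level was 2967, 3477 and 2668 CPM at low and 1409, 2039 and 945 CPM at medium density. Medium replicate 2 was the highest of its group and medium replicate 3 the lowest, which is the order of the group in roX1. At low density the orders differed: replicate 2 was highest in the testis sum and replicate 1 in roX1, with replicate 3 lowest in both. DESeq2 called 44 of the 77 lower, against 8.78% of all genes. Without medium replicate 2, edgeR called 45 lower, against 7.81% of all genes in that fit. Neither called any of the 77 higher. In pooled whole larvae, fewer spermatocytes or fewer males in a pool and less RNA per spermatocyte cannot be told apart.

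Regulators that switch on the spermatocyte programme were among those furthest apart. Of the 17 meiotic arrest regulators, the testis-specific transcription machinery, 16 were lower at p under 0.05, and their median log2 fold change was -1.27. tomb, a DNA-binding subunit of the testis meiotic arrest complex, was at 3.52, 2.68 and 2.30 CPM at low and 0.865, 1.07 and 0.599 CPM at medium density, a log2 fold change of -1.73 ± 0.28 (edgeR adjusted p = 0.13, DESeq2 adjusted p = 0.000177). Every medium-density library lay below every low-density one. dany, a chromatin factor of spermatocytes, differed most of the 77, by -1.78 ± 0.36. The testis forms of general transcription factor subunits, Taf12L and nht, were lower by similar sizes, with Taf12L at 18.2, 26.1 and 17.5 CPM at low and 8.12, 10.6 and 5.19 CPM at medium density (log2 fold change -1.37 ± 0.30), nht at -1.42 ± 0.40 and wuc, a small subunit of the complex, at -1.37 ± 0.40. The exception was mip40, a subunit shared with a related complex found in other cells, at 22.6 ± 1.63 CPM (SD, n = 3) at low and 20.9 ± 2.23 CPM at medium density, a log2 fold change of -0.11 ± 0.11 with overlapping groups.

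Products made later in spermatocytes were lower to a similar extent. Among 46 spermatocyte and sperm transcripts, 43 were lower at p under 0.05 and the median was -1.10. ocn, an abundant testis protein gene on chromosome arm 3R, stood at 84.9, 110.7 and 81.5 CPM at low and 41.9, 59.7 and 24.2 CPM at medium density, a log2 fold change of -1.14 ± 0.35. sowi had the smallest p of the list, with a log2 fold change of -1.20 ± 0.30. ProtA, a protamine that packs sperm DNA, was 1 of the 3 members short of that p, at -0.88 ± 0.39 with groups that did not overlap.

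The Y chromosome showed the same direction. Of its 113 genes, 84 did not pass the filter on low counts, and of the 29 tested, 18 were lower at p under 0.05, 0 were higher, and 28 were below 0, with a median log2 fold change of -1.13. Those that passed needed enough counts in at least 3 libraries, so the 29 do not speak for the chromosome, and 22 of the 29 held fractional counts, from reads shared among copies, so that the division among copies is uncertain. ARY, an aldehyde reductase gene with whole counts throughout, had 5.82, 7.62 and 4.33 CPM at low and 2.40, 2.77 and 1.897 CPM at medium density (log2 fold change -1.33 ± 0.29). CCY and FDY, at -1.28 ± 0.36 and -0.71 ± 0.19, also did not overlap between the groups. The fertility factors that encode axonemal dynein heavy chains were less clear: kl-5 was at -1.09 ± 0.50 and kl-2 at -0.90 ± 0.42, both without overlap but short of that p, and kl-3 was at -0.19 ± 0.44 with overlapping groups. The Y-linked genes took 0.005% to 0.008% of counts at low and 0.002% to 0.004% at medium density.

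Among paired copies of the same subunit, the less abundant copy was lower at p under 0.05 in most pairs, and the more abundant partner in none. The 36 copies and 31 partners were picked after their values had been seen, from the oxidative phosphorylation, ribosomal and proteasome lists. Of the copies, 34 were below 0 and 32 were lower at p under 0.05, with a median log2 fold change of -1.14 and a range from -1.48 to 0.16. Of the partners, 0 were lower and 4 higher at p under 0.05, with a median of 0.10 and a range from -0.13 to 0.33. In all 36 pairs the copy had the lower fold change and the lower level per kilobase of exon. In the 6 ribosomal pairs the less abundant member was taken as the copy, so its lower level was set by that rule. RpS14b and RpL34a were above 0 like their partners, and 3 of the partners were below 0 like their copies.

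The oxidative phosphorylation list shows what the split does to a pathway count. Of its 82 tested genes, 20 (24.4%) were lower and 0 higher at p under 0.05, against 17.5% and 7.51% of all genes. Yet its median was 0.00. The 16 copies in the pairs were all among the 20, with a median of -1.17, while their 15 partners had a median of 0.08 and 0 at that p. ND-20L, a copy of a subunit of NADH dehydrogenase, was at 6.13, 8.54 and 5.96 CPM at low and 2.69, 3.31 and 1.80 CPM at medium density, whereas its partner ND-20 was at 49.9, 51.8 and 53.3 CPM and at 60.1, 52.7 and 55.7 CPM. The copy did not overlap between the groups and had a log2 fold change of -1.40 ± 0.29, and the partner did overlap, at 0.12 ± 0.10. COX4L of cytochrome c oxidase and ATPsynbetaL of the ATP synthase were likewise lower, by -1.13 ± 0.28 and -1.19 ± 0.27, against 0.08 ± 0.11 for the partner ATPsynbeta.

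**Figure D2:**
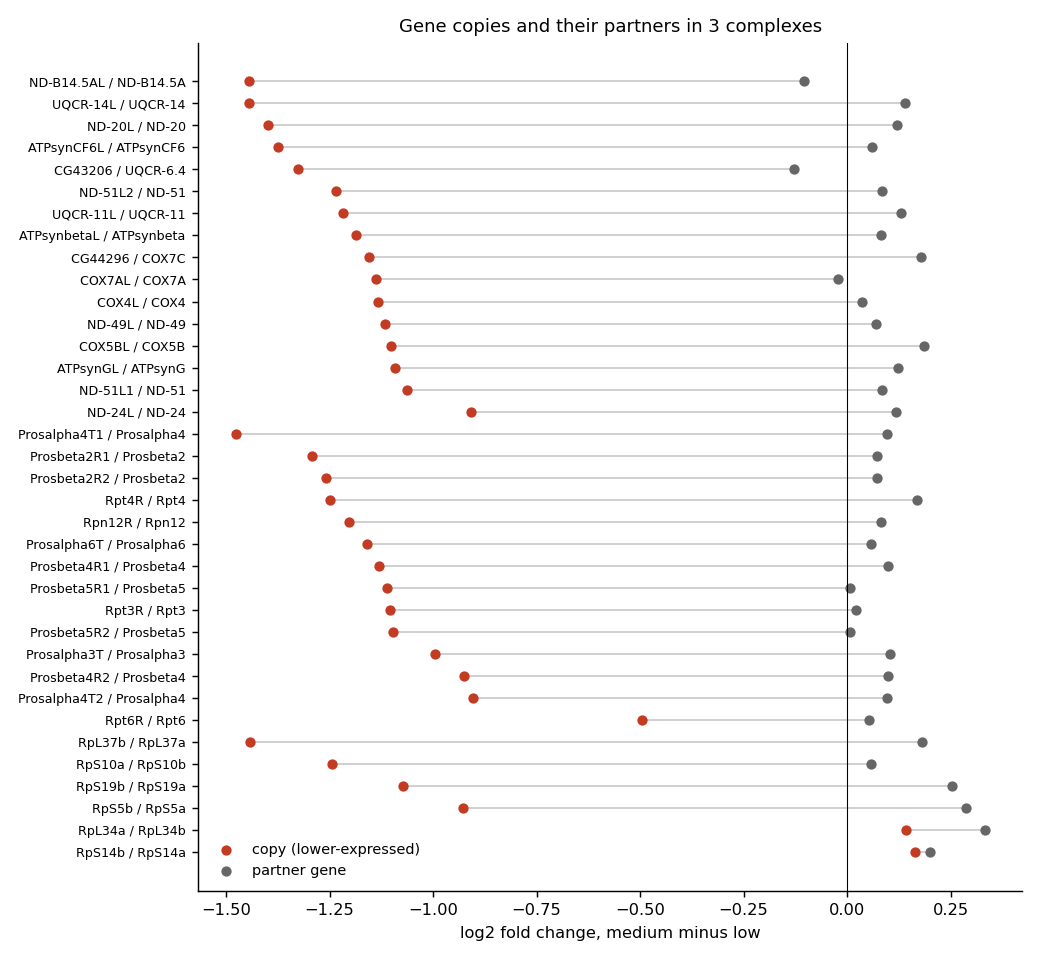
The x axis is the log2 fold change, medium minus low, of each less abundant copy (red) and of its partner (grey), for 16 pairs of oxidative phosphorylation, 14 of the proteasome and 6 of the ribosome from top to bottom. All 36 copies lie to the left of their partners, and RpL34a and RpS14b are the 2 copies to the right of 0.

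In the proteasome, which degrades tagged proteins, 12 of the 14 testis copies were lower at p under 0.05 and the median was -1.12, while the 32 genes of the common 26S particle had a median of 0.04, with 1 higher. Prosalpha4T1 was lowest, with a log2 fold change of -1.48 ± 0.42. Rpt3R had the smallest p of the copies (-1.10 ± 0.26), and the most abundant copy, Rpt6R, differed less, at 45.5, 42.8 and 45.9 CPM at low and 30.5, 33.1 and 31.6 CPM at medium density (-0.50 ± 0.15). Among the common subunits, Prosalpha2 was at 0.05 ± 0.08 and Rpt4, an X-linked ATPase subunit, at 0.17 ± 0.07.

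Cytosolic ribosomal protein genes were mostly above 0. Of 83 tested, 23 (27.7%) were higher and 4 (4.82%) lower at p under 0.05, against 7.51% and 17.5% of all genes. The median was 0.18, and the 23 ranged from 0.19 to 0.39. The 4 lower genes, RpL37b, RpS19b, RpS5b and RpS10a, were all less abundant copies of a subunit, while the copies RpS14b and RpL34a lay above 0 with their partners, at 0.16 and 0.14. RpL37b was at 9.26, 11.1 and 7.58 CPM at low and 3.56, 4.51 and 2.20 CPM at medium density (-1.44 ± 0.27), with no overlap. Its partner RpL37a was at 858 ± 37.6 CPM (SD, n = 3) and 972 ± 60.5 CPM (0.18 ± 0.11). The most abundant gene of the list, RpL41, was at 0.04 ± 0.14.

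X-linked genes outside the testis lists were found in both directions. Of 2055 genes, 284 (13.8%) were higher and 337 (16.4%) lower, against 7.51% and 17.5% of all genes tested and against 684 (6.38%) and 1829 (17.1%) of the 10722 genes of the rest. The sizes in the 2 directions were unlike: the median log2 fold change of those higher was 0.31 on the X and 0.31 in the rest, and of those lower -1.15 and -1.07. Over all X-linked genes the median was 0.09, with 1294 above 0, and over the rest 0.01. With library totals in place of TMM factors the medians were lower by about the same amount, and the X-linked median was -0.01 beside -0.09 for the rest, with 5.99% of X-linked genes higher and 18.8% lower at p under 0.05 beside 3.13% and 21.1% of all genes. The X took 12.1% to 12.2% of a low-density library's counts and 12.3% to 12.5% of a medium-density library's, with no overlap.

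Among X-linked genes, the smallest p belonged to CG15043, at 36.6, 29.5 and 34.4 CPM at low and 20.9, 20.2 and 19.9 CPM at medium density (-0.72 ± 0.10, edgeR adjusted p = 0.13). Sp1, a zinc-finger factor of leg growth, was next, at 30.9, 29.5 and 34.3 CPM and 43.7, 44.9 and 45.0 CPM (0.50 ± 0.08). Neither gene overlapped between the groups, and DESeq2 called both, with adjusted p of 8.63e-06 and 1.7e-05. The 4 largest X-linked falls in value were CG15196 (-1.72), CG14628 (-1.70), the pseudogene CR17438 (-1.58) and lncRNA:CR43835 (-1.54), each between 5.44 and 7.30 CPM on average at low density.

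Of the X-linked genes higher at p under 0.05 without overlap and with at least 5 CPM in the higher group, the 4 with the largest fold change were pseudogenes of the 28S ribosomal RNA, 28SrRNA-Psi:CR45860, CR45855, CR41609 and CR45859, with log2 fold changes between 1.52 and 3.10. CR45860, the furthest, varied within the medium group, at 46.4, 98.1 and 248 CPM, against 15.7, 14.1 and 16.0 CPM at low density. Of 23 ribosomal RNA pseudogenes in the table, 10 were tested and 9 were higher at p under 0.05, with summed levels of 907, 638 and 672 CPM at low and 2271, 1923 and 2314 CPM at medium density. The mitochondrial ribosomal RNA lrRNA took 6.27%, 6.55% and 8.55% of counts at low and 7.37%, 10.24% and 10.06% at medium density, with overlap. With ribosomal RNA genes such as lrRNA left out, 599 of 3031 genes at p under 0.05 were higher, against 968 of 3223 with them. A link between lrRNA and the levels of the pseudogenes was not tested. The group was set apart after its values had been seen. Outside the X, 28SrRNA-Psi:CR45848 and 28SrRNA-Psi:CR40596 were among the genes of the rest with the largest differences, the latter at 110.2, 68.65 and 76.72 CPM at low and 282.9, 303.7 and 301.0 CPM at medium density. All 6 had fractional counts in all 9 libraries, so that the locus that made the RNA is uncertain.

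Chromosome 4, the small dot chromosome, was examined after its values had been seen. Of 98 genes tested, 16 (16.3%) were higher and 2 (2.04%) lower at p under 0.05, against 7.51% and 17.5% of all genes, and the median was 0.13. The 16 ranged from 0.18 to 0.64, with the lipoprotein precursor gene apolpp at the top (3127, 3815 and 4270 CPM at low, 6252, 4949 and 6207 CPM at medium density) and ci, the transcription factor of the hedgehog pathway, at 0.28 ± 0.11. JYalpha, a sodium pump subunit needed for sperm motility, was 1 of the 2 lower genes, at 22.5, 24.8 and 18.9 CPM and 8.892, 13.99 and 5.792 CPM (-1.21 ± 0.37).

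**Figure D3:**
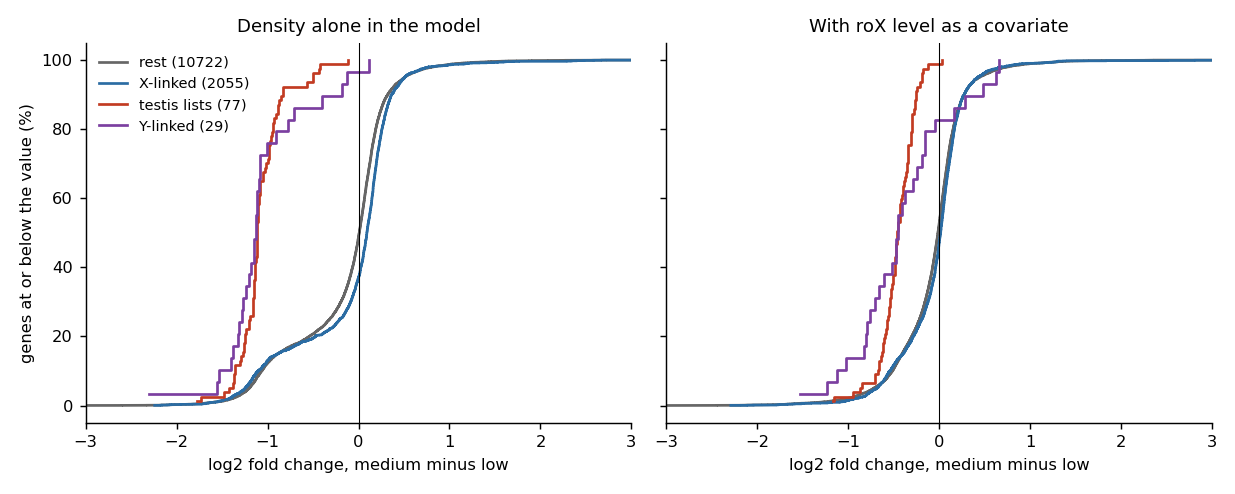
Cumulative share of genes (y axis, percent) at or below each log2 fold change, medium minus low (x axis), for testis, Y-linked, other X-linked genes and the rest, from the fit with density alone (left) and with roX level added (right). The testis and Y-linked curves have medians of -1.11 and -1.13 on the left and of -0.46 and -0.45 on the right, while the X-linked and rest curves share a shoulder near -1 on the left.

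Because roX level differed between the pools, a fit with the mean log2 CPM of roX1 and roX2 as a covariate was set beside the fit with density alone. With the covariate, 0 genes passed the adjusted threshold, the lowest adjusted p was 0.109, and 514 genes (3.99%) had an unadjusted p under 0.05, 159 (1.23%) higher and 355 (2.76%) lower. Of the 3223 genes of the fit without it, 412 were among the 514, which is 12.8% of the former and 80.2% of the latter. The median of the testis genes went from -1.11 to -0.46, with 76 of 77 still below 0 and 8 lower at p under 0.05, that of the Y-linked genes from -1.13 to -0.45, and that of the X-linked genes from 0.09 to 0.02. The covariate is itself a transcript level measured with error in the same libraries and takes up part of the difference between the groups, so what remains is no measure of density alone.

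The rest held 561 genes higher and 1344 lower at p under 0.05 without overlap and with at least 5 CPM in the higher group. The testis class held only members of the lists used here, so JYalpha, mael and bgcn, which act in testis or sperm, counted in the rest. Genes of the rest lower at p under 0.05 had a median of -1.07, beside -1.11 for all testis genes. How many of the 1344 are testis transcripts was not tested. The 8 genes of the rest with the largest fold change in each direction were named. The highest was CG4716, at 20.03, 24.92 and 30.14 CPM at low and 115.3, 77.57 and 105.2 CPM at medium density, a log2 fold change of 1.99 ± 0.35 (DESeq2 adjusted p = 2.44e-05). All 3 medium-density libraries were more than 2 times as high as the highest low-density library. With roX level as a covariate the difference was 1.48. CG7465, 28SrRNA-Psi:CR45848 and CG32198 followed in that order, the last at 1.81 ± 0.62, and with roX level as a covariate CG7465 was at 0.13 and CG32198 at 0.69. CG7465 ran from 3.971 to 5.99 CPM at low and from 7.153 to 28.16 CPM at medium density, and CG32198 ran from 3.04 to 21.4 CPM at low and from 22.8 to 48.7 CPM at medium density.

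Drsl2, a member of the antifungal drosomycin family, was at 11.5, 29.9 and 24.7 CPM at low and 31.1, 73.1 and 103.6 CPM at medium density (1.65 ± 0.58). Hsp70Ab, a heat-inducible chaperone, was at 4.69, 3.39 and 4.24 CPM at low and 9.42, 9.39 and 19.0 CPM at medium density (1.62 ± 0.52), and the near-identical Hsp70Aa was alike, at 1.57 ± 0.54. These copies share reads, and 3 of 15 heat shock genes, all of the Hsp70 group, were higher at p under 0.05, against 7.51% of all genes, with a list median of 0.01. The most abundant of the list, the small heat shock gene Hsp23, was at -0.26 ± 0.33. Lcp3, a cuticle protein gene, was at 257, 390 and 463 CPM at low and 1604, 519 and 1332 CPM at medium density (1.64 ± 0.57), and 0.34 with roX level as a covariate.

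Among the lower genes of the rest, AttA, an attacin made against Gram-negative bacteria, was at 11.2, 6.70 and 8.08 CPM at low and 1.78, 1.16 and 2.80 CPM at medium density, the largest of the 8 differences at -2.18 ± 0.62. AttB, its neighbour and close copy, and AttD were lower as well, at -2.10 ± 0.61 and -1.39 ± 0.55. Of the 14 antimicrobial peptide genes tested, these 3 (21.4%) were lower and Drsl2 (7.14%) higher at p under 0.05, against 17.5% and 7.51% of all genes, and the most abundant, Drs, overlapped between the groups (-0.60 ± 0.49).

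Cht9 and Cht4 are neighbouring chitinase genes of chromosome arm 2R, at chr2R:21067992-21069286 and chr2R:21065379-21067087 of Release 6, both on the minus strand. Cht9 was at 22.8, 21.2 and 19.4 CPM at low and 7.64, 4.87 and 4.09 CPM at medium density (-1.93 ± 0.41, DESeq2 adjusted p = 0.00104). Cht4 was at 14.34, 12.02 and 12.95 CPM and 4.57, 5.19 and 2.30 CPM (-1.70 ± 0.27, DESeq2 adjusted p = 1.7e-05). The rule that chose both genes required groups without overlap. With roX level as a covariate the log2 fold changes of Cht9 and Cht4 were -2.14 and -1.42.

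Another pair of neighbours lay on arm 2L. CG8997, at chr2L:13843915-13845325, was abundant, at 1511, 1348 and 1290 CPM at low and 919, 748 and 664 CPM at medium density (-0.83 ± 0.13), and CG7968, at chr2L:13849400-13850329, was at 13.1, 12.9 and 10.8 CPM and 4.181, 2.906 and 2.996 CPM (-1.87 ± 0.32). CG8997 did not overlap between the groups, nor did CG7968, which was chosen by a rule that required this. With roX level as a covariate they were at -0.72 and -2.08. The other named genes of the rest were CG17364 (-2.02 ± 0.68), CG31741 (-1.77 ± 0.29), the maltase gene Mal-A1 (-1.72 ± 0.60) and CG10822 (-1.69 ± 0.45), and the genes of the rest with the smallest p in edgeR were lncRNA:CR43410 (-1.68 ± 0.25), CG8997 and CG4362 (-1.44 ± 0.23).

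**Figure D4:**
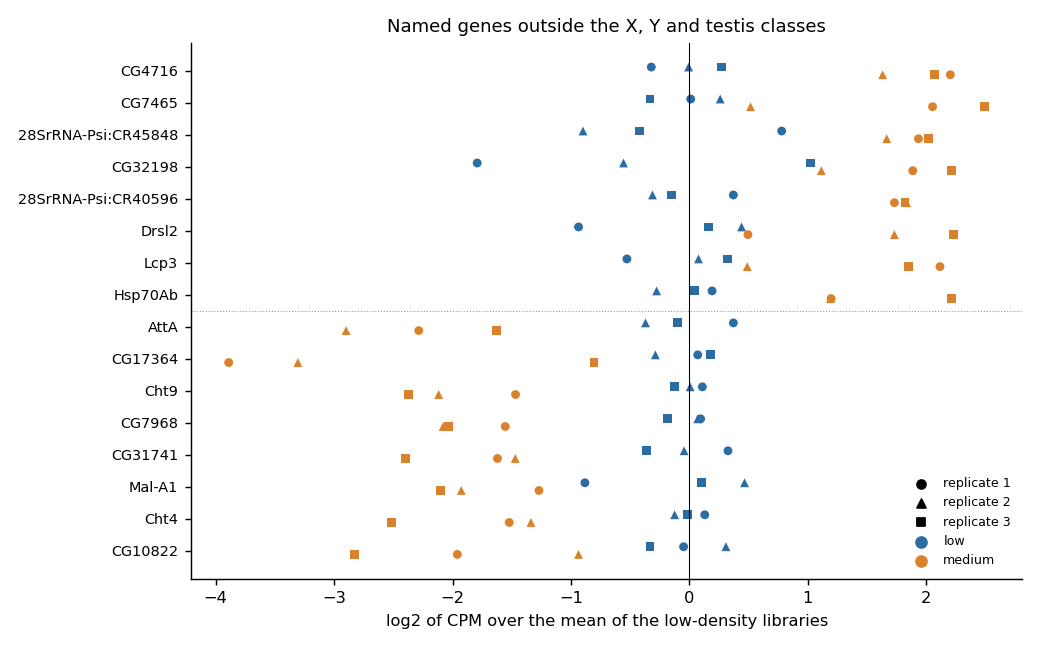
The x axis is the log2 of a library's CPM over the mean of the 3 low-density libraries (blue), with medium-density libraries in orange and replicate numbers by symbol, for the 16 genes of the rest named by size, the 8 higher above the dotted line and the 8 lower under it. Groups do not overlap by the rule that chose them, medium replicate 2 (triangles) lies nearest to low density for CG4716, CG7465, CG32198 and Lcp3, and CG17364 and CG10822 spread most among the lower genes.

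Among digestive genes, 3 of the 14 amylases and maltases (21.4%) were lower and 1 (7.14%) higher at p under 0.05, near the shares of all genes. Besides Mal-A1, these were Mal-A6 at 147, 134 and 118 CPM at low and 98.8, 99.4 and 116 CPM at medium density (-0.35 ± 0.11), Amyrel at -0.54 ± 0.20, and, in the other direction, the most abundant member Mal-A5 at 0.32 ± 0.12. Of 26 gut serine proteases, 2 (7.69%) were lower and 0 higher. Jon99Ci was at 38.5, 39.0 and 26.3 CPM and 22.9, 14.3 and 14.1 CPM (-1.01 ± 0.30), whereas the most abundant, Jon65Aiv, overlapped (-0.22 ± 0.20). The list of glutathione S-transferases, which conjugate toxins and oxidised lipids, had 4 of 33 (12.1%) lower, below the 17.5% of all genes, and 0 higher, with GstO1 at -0.62 ± 0.15 and GstD5 at -0.87 ± 0.30. The most abundant of them, GstD1, was at 0.08 ± 0.11.

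Many blood-cell transcripts were higher at medium density. Of 13 hemocyte and melanization genes, 8 (61.5%) were higher and 0 lower at p under 0.05, with a median log2 fold change of 0.63, against 7.51% of all genes and a median of 0.02. srp, the GATA factor of blood cells and fat body, was at 76.1, 70.0 and 78.5 CPM at low and 98.4, 92.5 and 102.1 CPM at medium density (0.38 ± 0.09, DESeq2 adjusted p = 0.00664). Hml, a clotting protein of plasmatocytes, was at 44.8, 40.1 and 48.9 CPM and 110.8, 65.7 and 107.1 CPM (1.08 ± 0.42). The collagen gene Col4a1, made by hemocytes and fat body, was at 103.5, 104.6 and 102.8 CPM and 208, 152 and 179 CPM (0.80 ± 0.23). The groups did not overlap for any of these 3, nor for the phagocytic receptor genes eater (0.84 ± 0.31) and NimC1 (0.63 ± 0.25) or for the peroxidasin gene Pxn (0.66 ± 0.24). crq, another phagocytic receptor and the list's most abundant gene, was at 174.1 ± 13.2 CPM (SD, n = 3) and 173.8 ± 8.45 CPM. With roX level as a covariate the list's median was 0.28 and srp was at 0.33.

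In the salivary gland, the new-glue genes, an X-linked cluster read before the glue genes proper, stood higher. ng3 was at 1.96, 1.76 and 2.57 CPM at low and 12.8, 2.55 and 18.0 CPM at medium density, a log2 fold change of 2.40 ± 0.63. Medium replicate 2 lay among the low-density libraries and the other 2 were well above them. ng2 was at 0.348, 0.293 and 0.0902 CPM and 1.25, 2.01 and 0.899 CPM, and ng1 at 0.0869, 0.168 and 0.0451 CPM and 0.481, 0.581 and 0.549 CPM, both without overlap, but low-density values lay around the floor of 3 counts and no fold change is given. The fourth gene of the cluster, ng4, had 0 counts. Of 8 salivary glue genes, Sgs1 was higher, at 718, 669 and 573 CPM and 1592, 927 and 1672 CPM (1.10 ± 0.36), and the most abundant, Sgs7, was at -0.04 ± 0.18.

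At p under 0.05, 10 of 62 cuticle genes (16.1%) were higher and 1 (1.61%) lower, against 7.51% and 17.5% of all genes. Their median was 0.30. Cpr67Fa1, Lcp65Ae and Cpr65Ay led by size or p among members at low level, with 0.352 ± 0.187, 0.594 ± 0.0627 and 0.362 ± 0.0879 CPM (SD, n = 3) at low and 1.55 ± 0.196, 1.76 ± 0.536 and 0.985 ± 0.201 CPM at medium density. The most abundant, Lcp1, was at 0.20 ± 0.21. The 6 larval serum and fat body genes were all above 0 with a median of 0.65, but 0 had p under 0.05, as for Lsp1beta, a storage protein, at 1992, 2549 and 2629 CPM and 7526, 3245 and 5545 CPM (1.19 ± 0.64). Fbp2, the most abundant, overlapped (0.28 ± 0.16). That median was 0.05 with roX level as a covariate.

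Muscle, glycolysis and carbohydrate storage genes had medians above 0 that came near to or under 0 with roX level as a covariate. Of 17 body wall muscle genes, 15 were above 0 with a median of 0.37, which became -0.17. Of the 17, 1 (5.88%) was higher at p under 0.05, below the 7.51% of all genes. It was the troponin C gene TpnC47D, at 1.34 ± 0.43 (0.32 with the covariate). The most abundant, the actin gene Act57B, overlapped between the groups (0.47 ± 0.35, and -0.26 with the covariate). All 13 glycolysis genes were above 0 with a median of 0.36, which became -0.06. Hex-A, a hexokinase gene, was the 1 (7.69%) at p under 0.05 (0.43 ± 0.17), near the 7.51% of all genes. The most abundant, Gapdh1, was at 0.36 ± 0.28. The 7 trehalose and glycogen genes had a median of 0.35, which became 0.02. UGP, which makes UDP-glucose, was the 1 (14.3%) at p under 0.05, at 0.45 ± 0.13. The glycogen phosphorylase gene GlyP was at 0.66 ± 0.43 with overlapping groups. In these lists medium replicate 2 lay close to low density: the mean log2 level of the muscle genes, relative to low density, was -0.02 in that library against 0.63 and 0.57 in the other 2.

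Lsd-1, a perilipin of the lipid droplet surface, was at 289.5, 281.9 and 277.8 CPM at low and 436, 356 and 379 CPM at medium density, without overlap (0.46 ± 0.09, DESeq2 adjusted p = 0.0004), and 0.38 with roX level as a covariate. Of 19 genes of lipid droplets and fatty acid oxidation, 3 (15.8%) were higher and 0 lower at p under 0.05. That compares with 7.51% and 17.5% of all genes. The oxidation enzyme gene Mcad was at 0.03 ± 0.14. Of 18 genes of the ecdysone receptor and early response, 2 (11.1%) were higher and 0 lower at p under 0.05, against 7.51% and 17.5% of all genes, with a median of -0.01 and 9 genes on each side of 0. These were EcR and usp, the partners of the ecdysone receptor, at 0.27 ± 0.12 and 0.29 ± 0.09. Of 9 juvenile hormone genes 2 (22.2%) were higher and 0 lower, Met and gce, receptors of the hormone, at 0.25 ± 0.08 and 0.39 ± 0.14. Of 11 insulin signalling genes 2 (18.2%) were higher and 0 lower, where foxo was at 0.27 ± 0.09 and Ilp6, an insulin-like peptide of the fat body, at 0.42 ± 0.13. The ecdysone-inducible ImpE2 overlapped (-0.03 ± 0.37), Jheh2, which breaks down juvenile hormone, was at 0.25 ± 0.13, and Thor, a target of foxo, at 0.24 ± 0.12. Of 10 genes of ecdysone synthesis and breakdown, 0 had p under 0.05, with sro at 0.26 ± 0.12 and spok at 0.03 ± 0.14.

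**Figure D5:**
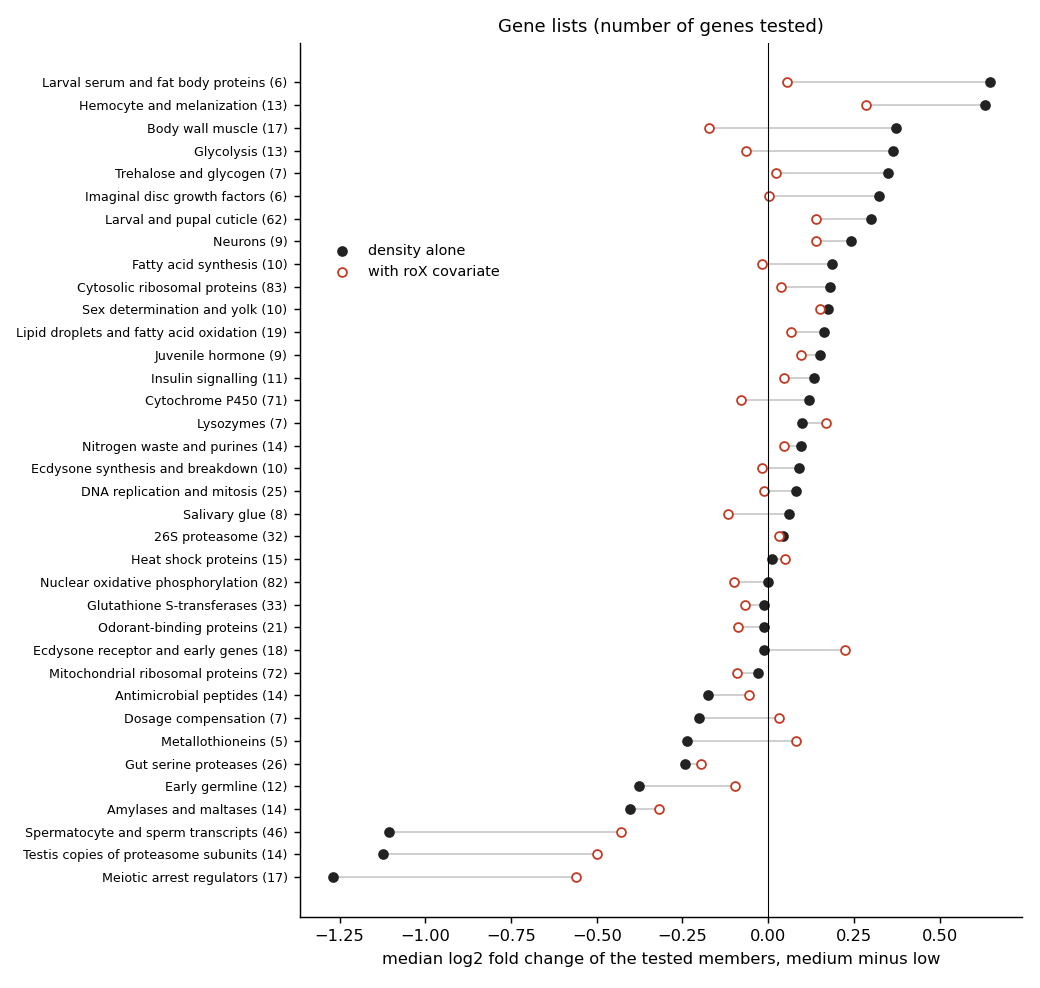
Median log2 fold change, medium minus low (x axis), of the tested members of each list with at least 5 of them, from the fit with density alone (filled) and with roX level as a covariate (open), with the number of genes tested in brackets. The 3 testis lists stand alone at the low end, at -1.27, -1.12 and -1.10, and the larval serum and hemocyte lists are highest, at 0.65 and 0.63.

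Of 71 cytochrome P450 genes, which oxidise hormones and toxins, 4 (5.63%) were higher and 3 (4.23%) lower at p under 0.05, with Cyp4d1 at 65.1, 59.4 and 58.9 CPM at low and 133.8, 107.5 and 132.4 CPM at medium density (1.03 ± 0.33), Cyp9f2 at -0.46 ± 0.12 and the most abundant, Cyp6g1, at 0.12 ± 0.30. In Cyp4d1 all 3 medium-density libraries were above all of low density. Of 9 neuronal genes, all were above 0, and 3 (33.3%) were higher and 0 lower at p under 0.05, against 7.51% and 17.5% of all genes, with the synaptic genes Syt1 and Syn at 0.27 ± 0.11 and 0.33 ± 0.12. In fatty acid synthesis the desaturase gene Desat1 was higher in 3 of 3 libraries (0.28 ± 0.09) and the most abundant, ATPCL, overlapped (-0.22 ± 0.14). Mitochondrial ribosomal proteins had 2 of 72 (2.78%) lower and 0 higher, and DNA replication and mitosis 1 of 25 (4.0%) in each direction. Odorant-binding proteins had 1 of 21 (4.76%) higher, and lysozymes and metallothioneins 0 of 7 and 0 of 5. These shares were below those of all genes, 7.51% higher and 17.5% lower.

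Early germline genes went both ways. At p under 0.05, 3 of 12 (25.0%) were lower and 2 (16.7%) higher, against 17.5% and 7.51% of all genes. mael and bgcn, genes of the piRNA pathway and of germline differentiation that act in the testis, were lower, mael at 15.6, 17.9 and 12.5 CPM at low and 6.58, 9.34 and 6.59 CPM at medium density (-1.03 ± 0.23) and bgcn at -1.25 ± 0.34, as was the translational repressor gene nos at -0.84 ± 0.29. piwi, the founding gene of its family and active in gonads of both sexes, was higher, at 3.26, 3.10 and 2.89 CPM and 5.19, 4.69 and 6.24 CPM (0.80 ± 0.19), as was ovo, a factor of the female germline and of epidermis, at 0.30 ± 0.10. None of these 5 overlapped between the groups. The most abundant of the list, stau, was at 0.12 ± 0.07.

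Long non-coding RNAs outside the X had a median below 0, but the share lower at p under 0.05 was near that of all genes. Of 484 tested in the rest, 87 (18.0%) were lower and 15 (3.10%) higher at p under 0.05, against 17.5% and 7.51% of all genes. The median of the 484 was -0.46, against 0.02 for the 9839 protein-coding genes of the rest, of which 1677 (17.0%) were lower. With roX level as a covariate the median of the 484 was -0.04. Their summed level was not lower, at 5249, 5265 and 5637 CPM at low and 5703, 6240 and 5838 CPM at medium density. On the X, 23 of 72 long non-coding RNAs (31.9%) were lower and 4 (5.56%) higher at p under 0.05, with a median of -0.24.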

How the data were processed

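Whole-larva mRNA libraries of 3 low-density and 3 medium-density pools were compared. The authors deposited a single table of expected counts for 9 libraries, not normalized. Per the file headers, read pairs were counted with featureCounts 1.6.2 over RefSeq exons of Release 6, on the reverse strand, and a pair mapping to several places gave a fraction to each, so that 5.06% of values, in 14.8% of genes, are not whole and near-identical copies are uncertain. The submitters' processing notes name Trim Galore 0.6.4, HISAT2 2.1.0, SAMtools 1.9, DESeq2 1.26.0 and the build dm6.

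Counts were rounded and fitted in edgeR 4.0.16 (R 4.3.3) with filterByExpr, TMM factors, 1 coefficient per density, all 9 libraries in the fit and a quasi-likelihood F-test, with Benjamini-Hochberg adjustment over all 12883 genes and a threshold of 0.05. A standard error is the absolute fold change over the root of F. Classes and lists are described by counts and medians, with no set test. A list's level in a library is its mean log2 CPM (prior count 2) minus that of low density. Alternatives were DESeq2 1.42.0, limma 3.58.1 voom, other factors and filters, other gene sets, only low and medium libraries, roX level or replicate number in the model, and leaving out each library. The fit was tried on simulated counts.

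Genes named were roX1 and roX2, the 8 largest differences in each direction of the rest and 4 of the X and of the Y and testis genes (p under 0.05, no overlap, at least 5 CPM), the 3 smallest p of rest and X, and the most abundant and smallest-p member of each list described. Other names were chosen after their values were seen. Members and lists were chosen with earlier results of these data known. Of the gene symbols, 16913 were current in the RefSeq table, 796 were synonyms and 50 had no match.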

Additional observations from a re-analysis of the deposited data

How the results depend on the processing

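The count of 0 genes past an adjusted p of 0.05 in edgeR held under the alternatives run, except that DESeq2 called 1575 and a fit of only the low and medium libraries called 7. Leaving out 1 library gave between 0 and 1094 calls, the latter without medium replicate 2, and between 1760 and 3877 genes at an unadjusted p under 0.05. The lowest counts were 1760 without low replicate 2 and 1804 without medium replicate 3. With roX level as a covariate 514 genes had an unadjusted p under 0.05, and with roX level and the replicate block 1023. The causes were not tested.

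Whether replicate numbers pair the libraries cannot be told from 3 pools a group. Same-numbered low and medium libraries had deviations from their group means that correlated at -0.129, 0.182 and 0.279 across genes. Those of differently numbered libraries correlated at -0.278 to 0.1. The replicate block left 3001 genes at an unadjusted p under 0.05 and 0 calls.

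The median of the testis genes was between -1.49 (without medium replicate 2) and -0.84 (without medium replicate 3) under every alternative run except those with roX level, where it was -0.46, and -0.40 with the block as well.

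Some log2 fold changes turned sign, among them those of CG7465 and Lcp3, which were among the largest of the rest (1.897 and 1.638 with density alone). That of crq was 0.009 with DESeq2 and with RLE factors, 0.005 with TMM factors from the rest and with the rest alone in the fit, 0.015 with only low and medium libraries and 0.0 with the replicate block. Under library totals, which shift all genes alike, ATPsynbeta was at -0.023, RpL41 at -0.062, Mcad at -0.076, Prosalpha2 at -0.056, spok at -0.069 and GstD1 at -0.022. With roX level as a covariate, roX1 was at -0.031 and roX2 at 0.031. The covariate is the mean of these 2 RNAs, so their values near 0 in fits with it were fixed in advance. In the fit with roX level alone added, mip40 was at 0.029, ATPsynbeta at -0.085, crq at 0.074, Mcad at -0.033, Act57B at -0.263, kl-3 at 0.629 and ND-20 at -0.018. ImpE2 was at 0.227, Gapdh1 at -0.125, GlyP at -0.162, GstD1 at -0.067, Hsp23 at 0.04, Cyp6g1 at -0.017 and ATPCL at 0.027. With roX level and the replicate block, roX2 was at 0.026, mip40 at 0.01, CG7465 at -0.336, Lcp3 at -0.24, ATPsynbeta at -0.145, crq at 0.215, Mcad at -0.042, Lsp1beta at -0.666, TpnC47D at -0.106, Act57B at -0.674, Lcp1 at -0.01, Prosalpha2 at -0.017, kl-3 at 0.708, RpL37a at -0.025, ND-20 at -0.09, ImpE2 at 0.743, sro at -0.035, Gapdh1 at -0.437, GlyP at -0.715, Hsp23 at 0.44, Cyp6g1 at -0.419 and ATPCL at 0.196. Leaving out 1 library gave ranges of -0.046 to 0.185 for RpL41, -0.055 to 0.055 for crq, -0.086 to 0.148 for Mcad, -0.082 to 0.022 for Sgs7, -0.571 to 0.022 for kl-3, -0.064 to 0.006 for ImpE2 and -0.115 to 0.15 for spok.

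Depth limits ng1, ng2 and some Y-linked genes, which lay near the floor of 3 counts at low density. It also limits Yp3, Cpr67Fa1 and Cpr65Ay, with low-density means of 0.484, 0.352 and 0.362 CPM. For the more abundant genes the spread among 3 pools a group sets the precision.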
